A study of Mus musculus with 6 samples.

Results

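The 7 genes described here, Sun3, Spag4, Sun5, Spata6, Pmfbp1, Spatc1l and Cntln, encode SUN proteins of the spermatid nuclear envelope and proteins of the apparatus that couples the sperm head to the tail. They were chosen by symbol, and they are 7 of the 53700 gene identifiers in the count tables. All 7 were among the 21902 genes with enough reads to be tested. None of them differed past the threshold between mice labelled as conditional knockouts (cKO) of Msl3 and mice labelled wild type (WT), at an adjusted p of 0.05 in edgeR's quasi-likelihood test. Levels in the libraries labelled cKO were between 87.9% of the WT level for Sun3 and 113.4% for Cntln.

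Msl3 encodes a chromodomain subunit of the male-specific lethal complex, which acetylates histone H4. Whole testes were taken at postnatal day 45 from 3 mice labelled Msl3 wild type and 3 labelled floxed conditional knockout, all of the strain Msl3em1Forni/C57BL/6J, and total RNA was sequenced as single-end reads of 75 bp. Each library is labelled as a biological replicate. The recombinase line, the cells in which it acts and the part of Msl3 that it removes are not given in the sources used here.

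The head of a mammalian sperm is held to its tail by the head-tail coupling apparatus. This structure forms in elongating spermatids where the centrioles dock in a shallow fossa of the nuclear envelope. SUN proteins span the inner nuclear membrane and bind KASH-domain proteins of the outer membrane, so that together they bridge the nucleus and the cytoskeleton in the LINC complex. Testis-enriched SUN proteins take over from the widely expressed Sun1 and Sun2 as the spermatid nucleus is reshaped. Loss of SUN5, PMFBP1 or SPATA6 is known as a cause of sperm whose heads detach from their tails.

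Each library held 56991431 to 73766444 reads assigned to genes on the strand used, and 14.8% to 16.7% of reads were not assigned to a single gene. These include unmapped reads, 1.59% to 1.98% of all reads, and reads mapped to several places, 6.10% to 6.75%. Msl3 itself was counted at 942, 1226 and 990 reads in the WT libraries and at 1170, 829 and 923 in the libraries labelled cKO. The ranges overlapped, with a log2 fold change of -0.12 and an adjusted p of 0.551 in edgeR, so the count of the whole gene did not separate the labels and WT and cKO are used here as the labels give them. In whole testis, fewer cells of a type and less RNA per cell cannot be told apart.

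The sequences that bear on how these genes are counted and where they start are shown first. Spatc1l lies on the plus strand of chromosome 10, and an antisense transcript, Gm15343, covers 135 bp of exon 3 of its 4 exons on the other strand. The stretch shown is the part of that overlap that is coding in both annotated Spatc1l transcripts, at chr10:76569336-76569434 in GRCm38 (GENCODE M21), 99 bases on the plus strand. It is shown because reads from it can be given to Spatc1l only where the strand is known.
Spatc1l: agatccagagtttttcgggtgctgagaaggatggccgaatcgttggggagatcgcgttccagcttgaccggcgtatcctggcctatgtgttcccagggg

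Spag4 and Spata6 were the only 2 of the 6 members matched in the RefSeq promoter table with a window that holds the letters TGACGT on either strand. These letters are part of the cAMP response element, TGACGTCA, which CREM, an activator of many spermatid genes, is known to bind. The Spag4 stretch is chr2:156065063-156065183 and the Spata6 stretch is chr4:111719860-111719983, both on the plus strand of GRCm38.p6, and capitals mark the match. They are shown as examples of a match, and TGACGT was in 7.51% of all promoter windows. Other letters searched also matched members, such as TAACNG in Sun5 and Spata6.
Spag4: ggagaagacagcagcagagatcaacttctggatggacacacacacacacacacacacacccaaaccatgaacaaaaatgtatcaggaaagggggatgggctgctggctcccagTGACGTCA
Spata6: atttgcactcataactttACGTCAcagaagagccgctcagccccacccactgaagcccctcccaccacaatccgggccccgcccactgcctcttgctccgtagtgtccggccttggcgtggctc

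Of the 3 spermatid SUN genes, Sun3 had the lowest level in the libraries labelled cKO relative to WT. SUN3 is a testis SUN protein placed with its KASH partner along the manchette, the microtubule sleeve that shapes the spermatid head. Sun3 (ENSMUSG00000040985) lies on the minus strand of chr11:9016054-9048991. Its level was 86.7, 99.2 and 94.5 CPM (counts per 1000000 assigned reads, after scaling by the trimmed mean of M-values, TMM) in the WT libraries and 79.1, 85.8 and 81.5 CPM in those labelled cKO. All 3 libraries labelled cKO lay below all 3 WT libraries, and Sun3 was the only member whose groups did not overlap. The means were 93.4 ± 6.33 and 82.1 ± 3.41 CPM (SD, n = 3 each), a log2 fold change of -0.19 with a standard error of 0.072 and 95% limits of -0.34 and -0.03. The edgeR p before adjustment was 0.0231, and the adjusted p over all tested genes was 0.310, which does not pass.

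SPAG4, also called SUN4, partners SUN3 at the manchette and the posterior of the spermatid nucleus. Spag4 (ENSMUSG00000038180) lies on the plus strand of chr2:156065175-156070617. It was measured at 269.9, 286.3 and 278.6 CPM in the WT libraries and at 271.9, 245.2 and 251.8 CPM in those labelled cKO. Replicates 2 and 3 labelled cKO were below every WT library, and cKO replicate 1 lay inside the WT range. The log2 fold change was -0.12 (standard error 0.067, 95% limits -0.26 and 0.03), with an adjusted edgeR p of 0.445.

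SUN5 anchors the coupling apparatus to the nuclear envelope. Sun5 (ENSMUSG00000027480) lies on the minus strand of chr2:153856188-153871084. Its level was 67.3, 65.7 and 66.2 CPM in the WT libraries and 66.1, 65.5 and 65.1 CPM in those labelled cKO. Sun5 was the least variable member over the 6 libraries, and its groups overlapped. The level in the libraries labelled cKO was 98.7% of WT, with 95% limits of 90.0% and 108.3%, and the adjusted edgeR p was 0.919.

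**Figure D1:**
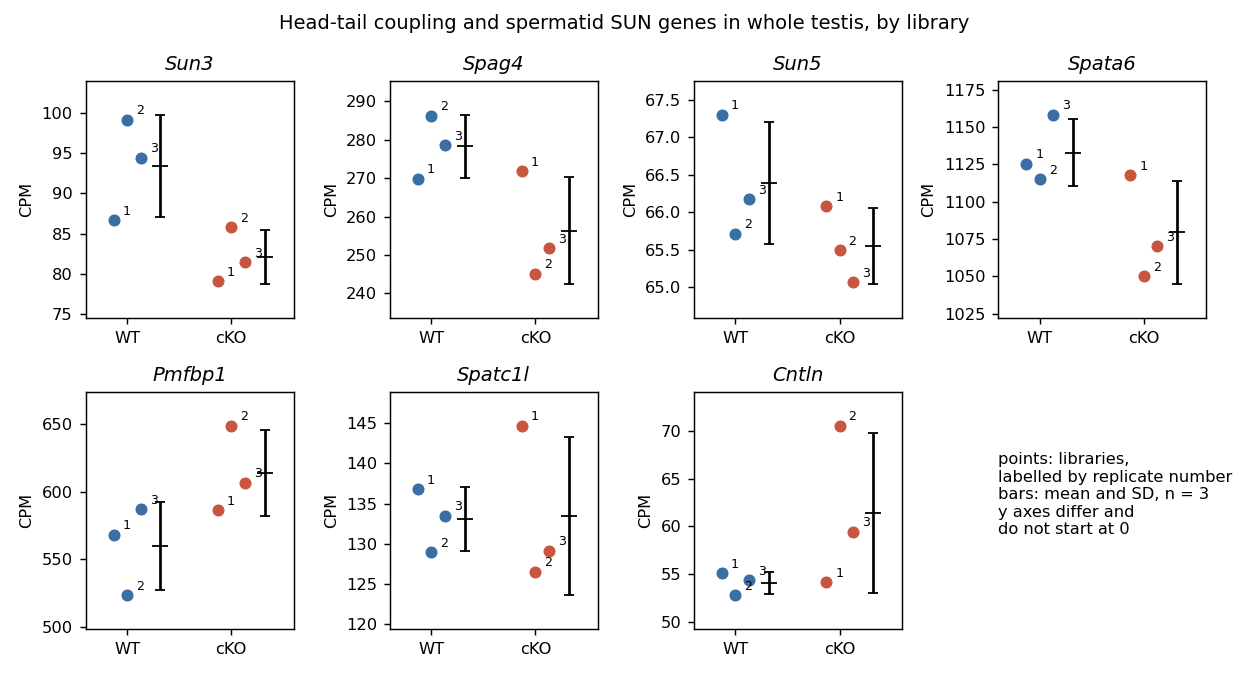
Each panel plots 1 gene, with TMM-scaled CPM on the vertical axis and the WT and cKO libraries on the horizontal axis. Points are libraries labelled by replicate number, bars are the mean and SD of 3 libraries, and the axes differ between panels and do not start at 0. The groups do not overlap for Sun3 and overlap for the other 6 genes. Replicate 2 labelled cKO stands above the rest for Cntln at 70.6 CPM.

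The plot of CPM by library also holds the 4 genes of the coupling apparatus and the centriole. SPATA6 is required to assemble the segmented columns and the capitulum of the connecting piece. Spata6 (ENSMUSG00000034401, plus strand of chr4:111719984-111829184) was the most highly counted member, at 1126, 1115 and 1158 CPM in the WT libraries and 1118, 1050 and 1070 CPM in those labelled cKO. Replicate 1 labelled cKO lay within the WT range and the other 2 lay below it. The log2 fold change was -0.07 (standard error 0.062, 95% limits -0.20 and 0.07), with an adjusted edgeR p of 0.646.

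PMFBP1 lies between SUN5 and SPATA6 in the coupling apparatus. Pmfbp1 (ENSMUSG00000031727, plus strand of chr8:109494027-109542640) was measured at 568, 523 and 587 CPM in the WT libraries and at 586, 649 and 607 CPM in those labelled cKO. Only cKO replicate 1 lay within the WT range, just below its highest library, and the other 2 lay above it. The log2 fold change was 0.13 (standard error 0.070, 95% limits -0.02 and 0.29), with an adjusted edgeR p of 0.416. Without WT replicate 2, the lowest library, it was 0.09.

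SPATC1L, a relative of speriolin, is needed to keep the sperm neck intact. Spatc1l (ENSMUSG00000009115, plus strand of chr10:76562272-76570201) was measured at 136.8, 128.9 and 133.5 CPM in the WT libraries and at 144.7, 126.5 and 129.1 CPM in those labelled cKO. Replicate 1 labelled cKO was the highest of the 6 libraries and replicate 2 labelled cKO the lowest. The group means were both 133 CPM, with SDs of 3.95 and 9.82, and the adjusted edgeR p was 0.985.

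Centlein, the product of Cntln, is a centrosomal protein that links centriole ends. Cntln (ENSMUSG00000038070, plus strand of chr4:84884309-85131921) was measured at 55.1, 52.8 and 54.4 CPM in the WT libraries and at 54.1, 70.6 and 59.4 CPM in those labelled cKO. The WT libraries lay close together, cKO replicate 1 was within their range, and cKO replicate 2 was far above it. The log2 fold change was 0.18 (standard error 0.090, 95% limits -0.01 and 0.38), with an adjusted edgeR p of 0.390. Without cKO replicate 2 the log2 fold change was 0.07, and without cKO replicate 1 it was 0.26.

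Taking the 7 genes as a list, the difference was above 0 for 3 and below 0 for 4, with a median log2 fold change of -0.02 beside 0.00 over all tested genes. In edgeR, 0 of the 7 passed the adjusted threshold, where 0.0183% of all tested genes did (4 of 21902). DESeq2 also called 0 of the 7, where it called 0.527% of the genes it gave a p (193 of 36603). At an unadjusted p under 0.05 edgeR counted 1 of the 7, Sun3, beside 13.9% of all tested genes. By direction, 0 of the 7 were higher and 1 was lower, beside 7.33% and 6.54% of all tested genes. The groups did not overlap for 1 of the 7, beside 18.9% of all tested genes. The shares of 1 in 7 for both directions together are near the background. The share of 1 in 7 lower is above the 6.54% of all tested genes and rests on 1 gene, Sun3. A p that misses the threshold does not show that the levels were equal. The narrowest of the 95% limits, those of Sun5, still allow a level of 90.0% of WT.

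**Figure D2:**
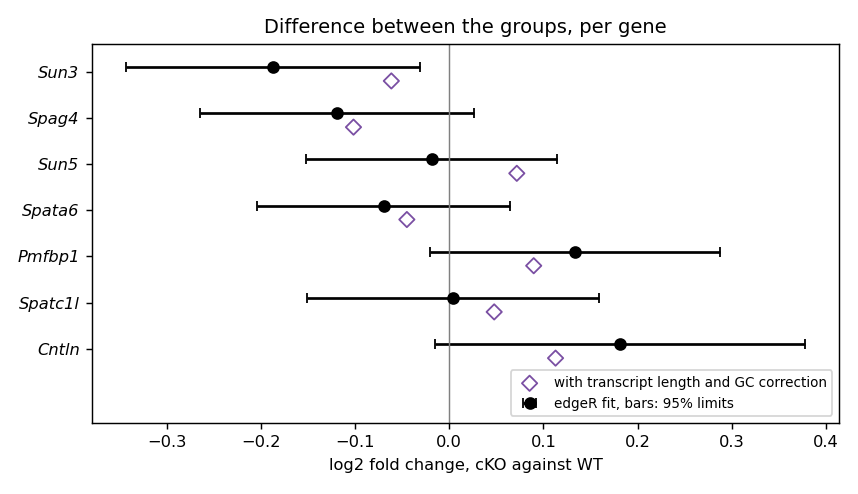
Filled points plot the log2 fold change of each gene, libraries labelled cKO against WT, with bars for the 95% limits of the edgeR fit (n = 3 each). Open diamonds plot the same value after a correction for transcript length and GC content, which takes Sun3 from -0.19 to -0.06. The bar of Sun3 ends below 0, and the bars of the other 6 genes cross it.

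Levels of different genes can be set side by side only per length. Per kilobase of merged exons, the mean over the 6 libraries was highest for Spata6, at 197 ± 6.99 CPM per kb (SD, n = 6), and next for Pmfbp1, at 163 ± 11.5. Spatc1l followed at 100.05 ± 5.03 and Sun3 at 67.6 ± 5.92. Spag4 at 55.3 ± 3.27 and Sun5 at 53.5 ± 0.622 had overlapping ranges, and the other neighbours in this order did not overlap. Cntln was lowest, at 8.13 ± 0.940 CPM per kb.

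The order depends on which length is used for Spag4. Its merged exons span 4831 bp while its longest coding transcript has 1473 bp, and Spata6 has 5616 and 2466 bp. Per kilobase of the longest coding transcript, Spag4 moved to the second place at 181 ± 10.7 CPM per kb, its range overlapping that of Pmfbp1 at 173 ± 12.2. Spata6 remained first on this scale at 449 ± 15.9 CPM per kb, and Cntln remained last at 10.4 ± 1.21. The 3 spermatid SUN genes were above the widely expressed pair on both scales: Sun1 was at 17.8 ± 0.491 and Sun2 at 10.3 ± 1.03 CPM per kb of merged exons, and at 32.7 ± 0.902 and 14.6 ± 1.47 per kb of transcript.

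**Figure D3:**
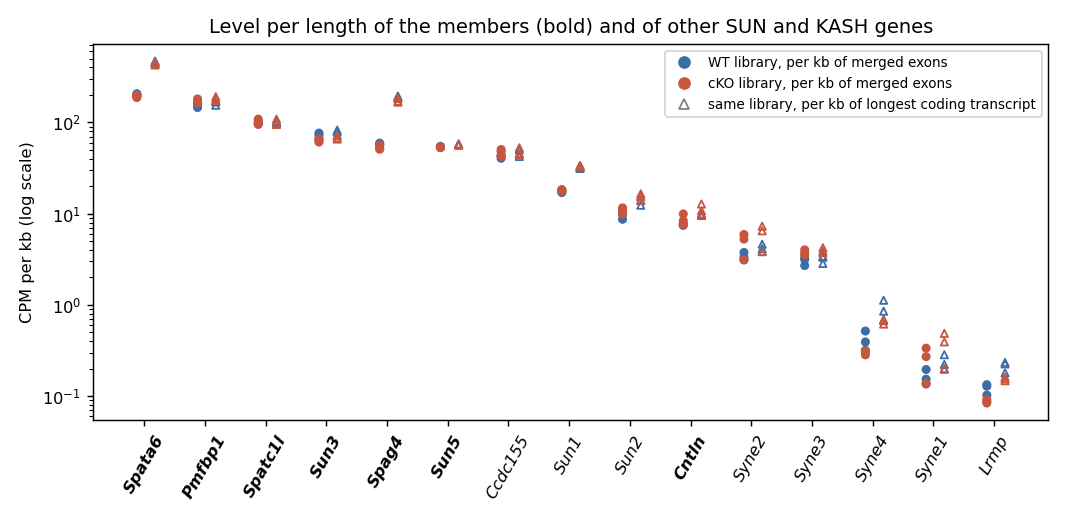
The vertical axis is CPM per kb on a log scale and the horizontal axis lists the 7 members in bold with 8 other SUN and KASH genes. Circles are the 6 libraries per kb of merged exons and triangles the same libraries per kb of the longest coding transcript. Spata6 is highest on both scales, and Spag4 shows a wide gap between its circles and triangles.

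The other genes of the pathway were taken as 4 lists with 48 genes, all of which were tested. None passed the adjusted threshold in edgeR. At an unadjusted p under 0.05 edgeR counted 9 genes with a higher and 1 with a lower level in cKO-labelled libraries, which are 9 and 1 of 48 beside the 7.33% and 6.54% of all tested genes. DESeq2 called 1 of the 48, Cep250, beside 193 of the 36603 genes it gave a p. The 48 genes had 34 higher and 14 lower values and a median log2 fold change of 0.05, beside 0.00 for all tested genes. In all 9 of the higher genes, cKO replicate 2 was the highest of the 6 libraries, and without that library 6 of the 9 stayed at an unadjusted p under 0.05.

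The list of other SUN and KASH genes had 6 of 8 higher, 3 of them at an unadjusted p under 0.05. Syne3 encodes nesprin-3, which ties the outer nuclear membrane to intermediate filaments through plectin. It was at 18.05, 17.5 and 15.0 CPM in the WT libraries and 19.7, 22.3 and 20.6 CPM in those labelled cKO, without overlap, with a log2 fold change of 0.31 and an adjusted edgeR p of 0.288. Syne2, which encodes the giant actin-binding nesprin-2, was at 83.3, 100.5 and 89.7 CPM in WT and at 83.5, 158.3 and 140.8 CPM in the libraries labelled cKO. Here cKO replicate 1 was within the WT range and the other 2 were above it, and the adjusted edgeR p was 0.306. Syne1, which encodes nesprin-1, had the same arrangement, at 5.51, 7.95 and 6.23 CPM in WT and 5.62, 13.6 and 11.0 CPM in the libraries labelled cKO, with an adjusted edgeR p of 0.323. Without cKO replicate 2 the log2 fold change of Syne1 went from 0.61 to 0.33 and that of Syne2 from 0.48 to 0.30.

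Syne4, which encodes the kinesin-binding nesprin-4, was the 1 pathway gene lower at an unadjusted p under 0.05. It was at 0.936, 1.53 and 1.16 CPM in WT and 0.836, 0.911 and 0.925 CPM in the libraries labelled cKO, a log2 fold change of -0.45 with an adjusted edgeR p of 0.358, and -0.24 without WT replicate 2. Its groups did not overlap, and its level per kb of merged exons was 0.356 CPM, beside 67.6 for Sun3. The meiotic KASH gene Ccdc155 and Sun1 and Sun2 had log2 fold changes of 0.05, 0.04 and 0.14, with overlapping groups.

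The 10 genes of the nuclear lamina and envelope had 4 higher and 6 lower values and none at an unadjusted p under 0.05. Emd, which encodes the inner membrane protein emerin, had the smallest p of the list, with a log2 fold change of -0.14 and an adjusted edgeR p of 0.447. The B-type lamin genes Lmnb1 and Lmnb2 had log2 fold changes of 0.12 and 0.05, with 0.06 to 0.19 and 0.00 to 0.11 when 1 library was left out. Dpy19l2, whose product holds the acrosome to the nuclear envelope, had overlapping groups, with an adjusted edgeR p of 0.996.

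Among the 24 genes of the sperm neck and basal body, 18 were higher and 6 lower, with 3 higher at an unadjusted p under 0.05. Cep131, which encodes a centriolar satellite protein, was at 62.6, 57.1 and 54.0 CPM in WT and 63.5, 77.6 and 68.7 CPM in the libraries labelled cKO. Ccdc146, which encodes a microtubule-associated protein of the sperm, and Poc1b, which encodes a centriole protein, had log2 fold changes of 0.25 and 0.20, the first going to 0.16 without cKO replicate 2. The groups did not overlap in any of these 3 genes, and the adjusted edgeR p was 0.288, 0.290 and 0.298 in turn. Odf1, a major outer dense fibre gene, had overlapping groups and a log2 fold change of 0.02.

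All 6 centrosome linker genes were higher, 3 of them at an unadjusted p under 0.05. Cep250 encodes C-Nap1, which roots the linker on the centriole end. It was at 20.4, 21.2 and 18.04 CPM in WT and 20.5, 35.3 and 27.9 CPM in the libraries labelled cKO, with an adjusted edgeR p of 0.288 and, in DESeq2, of 0.0485. Crocc, which encodes the rootlet protein rootletin, was at 8.46, 9.43 and 8.53 CPM in WT and 9.69, 12.9 and 11.8 CPM in the libraries labelled cKO, with an adjusted edgeR p of 0.288. Cdk5rap2, which encodes a centrosomal scaffold, had a log2 fold change of 0.26 and an adjusted edgeR p of 0.312. Its value was 0.13 without cKO replicate 2 and 0.02 after the correction for transcript length and GC content described with the length classes. Without the same library Cep250 was at 0.28. For Cep250 and Cdk5rap2 cKO replicate 1 lay within the WT range and the other cKO libraries above it, as for Cntln. For the linker genes Crocc and Lrrc45 cKO replicate 1 lay above the WT range. The arrangement is not particular to linker genes: Syne1, Syne2 and the median of transcripts above 8000 bp had it too.

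Differences between the groups moved with transcript length over all genes. Over the genes that averaged 1 CPM or more, the median log2 fold change was -0.16 for transcripts of up to 1000 bp (2101 genes), -0.06 from 1000 to 2000 bp, 0.03 from 2000 to 4000 bp, 0.10 from 4000 to 8000 bp and 0.20 above 8000 bp (833 genes). Above 8000 bp the median centred log2 CPM was -0.10, -0.06 and -0.10 in the WT libraries and -0.09, 0.23 and 0.13 in those labelled cKO. Long genes were thus high in cKO replicates 2 and 3, and cKO replicate 1 lay among the WT libraries.

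The members span these classes. Sun5 (1157 bp), Sun3 (1205 bp), Spatc1l (1332 bp) and Spag4 (1473 bp) belong to the class from 1000 to 2000 bp, Spata6 (2466 bp) and Pmfbp1 (3396 bp) to that from 2000 to 4000 bp, and Cntln (5528 bp) to that from 4000 to 8000 bp. The longest, Cntln, had the highest log2 fold change of the 7. The 9 higher pathway genes had transcripts of 3389 to 27908 bp, with Syne1 and Syne2 the longest. RNA integrity values are not given in the sources used here, and the part of transcript length in these results was not tested beyond the correction that follows.

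With each library's counts corrected for transcript length and GC content, an alternative added after the data were seen, the log2 fold change of Sun3 was -0.06 (adjusted edgeR p of 0.769) and none of the 7 members had an unadjusted p under 0.05. Cntln went to 0.11, Pmfbp1 to 0.09 and Spag4 to -0.10. Sun5 went to 0.07, with its sign turned, and Spatc1l to 0.05. Of the 9 higher pathway genes, 4 stayed at an unadjusted p under 0.05 (Syne3, Poc1b, Ccdc146 and Cep250), with log2 fold changes over the 9 of 0.02 to 0.26 in place of 0.20 to 0.61. Syne2 went from 0.48 to 0.13. Over the 48 genes the correction gave 5 higher and 2 lower at an unadjusted p under 0.05, beside 9.12% of all tested genes. The 3 that entered, named after their values were seen, were Ccdc42 (0.16), Tent5c (-0.15) and Cep112 (-0.15), with adjusted edgeR p values of 0.447, 0.495 and 0.545.

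**Figure D4:**
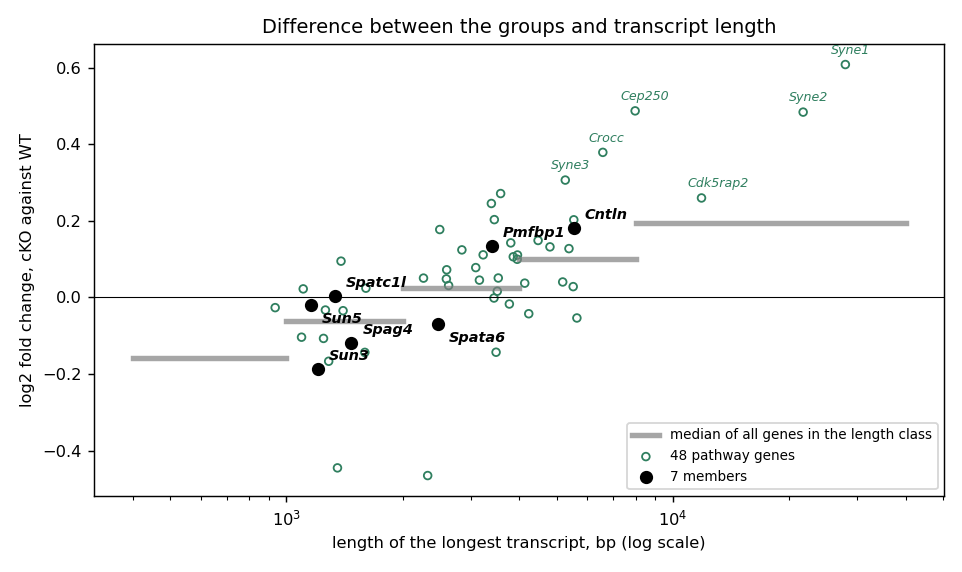
The horizontal axis is the length of the longest transcript in bp on a log scale and the vertical axis the log2 fold change of the libraries labelled cKO against WT. Filled points are the 7 members, open circles the 48 pathway genes, and grey bars the median of all genes averaging 1 CPM or more in each length class, which go from -0.16 to 0.20. Syne1, at 0.61, is the longest and the highest of the points.

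Markers of 10 cell types and stages were summed in each library. The summed level of 6 round spermatid markers had a lowest, median and highest value of 962, 1014 and 1090 CPM in WT and 926, 931 and 931 CPM in the libraries labelled cKO, without overlap. Of the 6, 5 had a log2 fold change below 0, 3 of them at an unadjusted p under 0.05, Catsper1 was at 0.10, and none passed the adjusted threshold in edgeR. Among them Izumo1, the sperm-egg fusion gene, had a log2 fold change of -0.26 and an adjusted edgeR p of 0.276. The 10 elongating spermatid markers summed to 19565, 20021 and 21413 CPM in WT and 17002, 19237 and 20198 CPM in the libraries labelled cKO, with overlap. Of the 10, 6 had a log2 fold change below 0, 3 of them at an unadjusted edgeR p under 0.05. The other 4 were above 0, 0 of them at that level, and none of the 10 passed the adjusted threshold. Of all tested genes, 6.54% were lower at that level. The round spermatid markers have a median transcript length of 1345 bp, in the class whose median over all genes was -0.06, and the elongating spermatid markers one of 710 bp, in the class with -0.16. No marker of either list was at 0 reads in all 6 libraries. The part of these stages, and of transcript length in the marker sums, in the Sun3 value was not tested.

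The remaining marker lists show what else the tissue held. Pachytene spermatocyte markers summed to 2620 to 2845 CPM in WT and 2768 to 2943 CPM in the libraries labelled cKO, and spermatogonial markers to 124 to 147 and 128 to 145 CPM. Sertoli cell markers summed to 222 to 255 and 229 to 271 CPM. All 7 of them had a log2 fold change above 0, and the groups did not overlap for Sox9 (0.26, adjusted edgeR p of 0.288) and Wt1 (0.16, adjusted edgeR p of 0.350). Of all 21902 tested genes, 11102 had a log2 fold change above 0, and 18.9% had groups that did not overlap in either direction. Leydig cell markers summed to 738 to 893 and 689 to 899 CPM. Peritubular myoid, macrophage and red blood cell sums overlapped as well. Endothelial markers, 3 genes, summed to 15.2 to 16.3 CPM in WT and 16.6 to 19.8 CPM in the libraries labelled cKO, without overlap. By gene, the groups overlapped for Pecam1 and Kdr and did not for Cdh5. The median transcript length was 3090 bp for the Sertoli cell markers and 3995 bp for the endothelial markers. The part of cell numbers and of transcript length in these sums was not tested. No marker in the 10 lists was at 0 reads in all 6 libraries.

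Genes with profiles like each member were sought by the root mean square difference of centred log2(CPM + 0.5) over the 6 libraries, among the 10030 genes that averaged 10 CPM or more. For Sun3 the nearest were 4930555F03Rik (0.0095) and Rnf121 (0.0178), and for Spag4 they were Pmis2 (0.0090) and Rnf4 (0.0103). For Sun5 they were Wdr20rt (0.0114) and Chfr (0.0134), and for Pmfbp1 Ppfia1 (0.0141) and Gripap1 (0.0162). For Spatc1l they were Cep41 (0.0109) and Fibp (0.0134), and for Cntln Zfp398 (0.0095) and Otud7b (0.0149). For Spata6, Tent5c differed by 0.0140. The closest pair among the 7, Sun5 and Spata6, differed by 0.0392. A neighbour is the nearest of 10030 genes and a nearest member that of only 6, so these distances cannot be compared. All of these values rest on the same 6 libraries and share their depth and scaling.

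The overlap of Spatc1l with Gm15343, of which the coding bases are shown above, touched a share of its count. When the strand was ignored, reads equal to 18.7% to 20.4% of the Spatc1l count could no longer be given to 1 gene. The share was 19.4 ± 0.901% in WT and 19.6 ± 0.481% in the libraries labelled cKO (SD, n = 3 each), a difference below the SD of either group. Gm15343 itself had only 173 to 217 reads a library on its own strand. Sun3 shares 123 bp of exon with Gm11992 on the other strand. Without the strand, reads equal to 4.14% to 5.21% of its count could not be given to 1 gene. These were about as many as the reads on the other strand, 211 beside 212 in WT replicate 1. The unstranded Sun3 count was 100.02% of the count used, so Sun3 did not lose its own reads. The other 5 members had no such reads, and the genes annotated inside Cntln and Spata6 share no exon bases with them.

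The promoter letters were searched on both strands from 250 bases before to 50 bases after each RefSeq start, in 32851 windows. The full element TGACGTCA, shown in capitals for Spag4, was in 1.79% of all windows and lies 37 to 30 bases before the RefSeq start of Spag4. GENCODE places the start of Spag4 38 bases before that of RefSeq. By that start the same letters lie inside the gene and end at its base 9. The shorter TGACGT, which the full element contains, was in 7.51% of windows. Spata6 had more than 1 RefSeq window, and only 1 of them held these letters. They lie there on the minus strand, 132 to 127 bases before the RefSeq start of that window. The MYB-type letters TAACNG were in windows of Sun5 and Spata6 and in 23.3% of all windows. The SOX-type ACAAT was in 1 window of Spata6 and in 31.0% of all. The RFX-type letters GTTGCC were in none of the members' windows and in 12.5% of all. A match is only a description of these letters.

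Genes of factors known to bind such letters did not pass the test either. Crem was at 219 ± 16.6 CPM in WT and 204 ± 7.33 CPM in the libraries labelled cKO (SD, n = 3 each), with overlapping groups and an adjusted edgeR p of 0.551. Mybl1, a meiotic MYB gene, had a log2 fold change of 0.08 and overlapping groups. Rfx2, a regulator of spermatid ciliary genes, was at 308 ± 11.1 and 351 ± 31.9 CPM, without overlap, with a log2 fold change of 0.19 and an adjusted edgeR p of 0.315, which does not pass.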

How the data were processed

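The deposited tables hold raw read counts per gene. The submitters' processing notes name mm10, STAR, HTSeq and DESeq2; versions and annotation release are not given in the sources used here. In every library 96.0% to 96.2% of strand-assigned reads lay in the column for reads opposite to the sequenced strand, and this column was used. Of 53700 identifiers 97.1% matched GENCODE M21 (GRCm38), which gave symbols, lengths and coordinates. Counts were tested with edgeR 4.0.16 in R 4.3.3 (quasi-likelihood test after TMM scaling and filterByExpr at its minimum count of 10, Benjamini-Hochberg over 21902 genes, threshold 0.05). TMM factors were 0.982 to 1.02, and the common biological coefficient of variation was 8.79%. DESeq2 1.42.0, other scalings and filters, unstranded counts, robust estimation, a replicate block and leaving out each library were alternatives. A loess correction of each library for transcript length and GC content was chosen after seeing the data. Tested on simulated data, the fit recovered 51% of 200 genes changed by 0.5 and 84% of 200 changed by 1 on the log2 scale. Of its 110 and 181 calls, 8 and 13 were false. The simulated counts held no shift with transcript length between libraries, unlike these data.

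The members and lists were chosen with earlier results of these data known. All members and Msl3 are named, and from each pathway list the genes at an unadjusted p under 0.05 or, if fewer than 3, those of smallest p up to 3; the 2 most like genes per member (1 for Spata6, the other is not reported here); other pathway, marker and factor genes were named after their values were seen. Promoters came from RefSeq (GRCm38.p6).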

Additional observations from a re-analysis of the deposited data

How the results depend on the processing

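In edgeR 4 genes were called over all tested genes. The count was 757 with no filter on low counts, 193 with DESeq2, 49 with the replicate block, 7 with the correction for transcript length and GC content and 2 with unstranded counts, and 1 to 628 when 1 library was left out. It was 116 without WT replicate 1 and 628 without cKO replicate 1. None of the 7 members was called under any of the 16 alternatives. The lowest adjusted p of a member was 0.109, for Cntln without cKO replicate 1, and Sun3 ranged from 0.145 to 0.769.

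The count of members at an unadjusted p under 0.05 was 2 with library totals alone, 2 with no filter and 2 with the replicate block, 0 with the length and GC correction, and 0 to 3 when 1 library was left out. The share of all tested genes at that level was 13.7%, 10.6%, 18.7%, 9.12% and 6.36% to 18.2% under the same settings. Sun3 missed that level without WT replicate 2, WT replicate 3, cKO replicate 1 or cKO replicate 3. The 10 pathway genes at that level became 4 to 13 when 1 library was left out: 4 without WT replicate 3 and 6 without cKO replicate 2. Called pathway genes were 4 with no filter and 7 without cKO replicate 1, among them Syne1, Syne2, Crocc and Cep250. Under these settings 2.07% and 2.82% of all tested genes were called. The causes were not tested.

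The sign turned for Sun5 (0.0718) and Lmnb2 (-0.0410) with the length and GC correction. It also turned for Spatc1l, to -0.0230 with library totals alone, -0.00522 with no filter and -0.00419 with at least 10 reads in every library, and the value of Spatc1l lay between -0.0586 and 0.0420 when 1 library was left out. The other 5 members kept their direction under all alternatives.

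Replicate numbers are shared by the groups but the labels give them no other meaning. For that reason the main fit did not pair the libraries. Deviations of same-numbered libraries correlated at 0.376, 0.263 and -0.0706. Differently numbered libraries were not compared, so these values do not settle whether the numbers pair the libraries. The replicate block called 49 genes and none of the members.

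With 3 libraries a group, the edgeR p-values set each difference against the spread between these libraries, estimated with the help of all tested genes.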
